A study of Danio rerio with 8 samples.

Results

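Cartilage matrix genes were followed through 8 libraries of sorted zebrafish neural crest cells. The set holds 10 genes, taken by name as genes of the cartilage matrix, namely *col2a1a* (ENSDARG00000069093), *col9a1a* (ENSDARG00000073699), *col9a2* (ENSDARG00000024492), *col11a1a* (ENSDARG00000026165), *col11a2* (ENSDARG00000012422), *matn1* (ENSDARG00000030215), *acana* (ENSDARG00000035891), *snorc* (ENSDARG00000092383), *cnmd* (ENSDARG00000100133), and *mia* (ENSDARG00000052437), with the Ensembl identifiers of the tables. They were chosen with earlier results of these data known, so the shares of all genes set beside them are a description. Each member was found under 1 gene identifier in the table of 2 dpf (days post-fertilization), which lists 25926 identifiers, and in the table of 2.5 dpf, which lists 32057. Positions in the genome are not given by the tables, which the authors made on the build GRCz11. The cells carried KikGR, a fluorescent protein driven by the *sox10* promoter in the Tg(sox10:kikGR) line, and were taken as fluorescent cells by flow sorting after digestion of the embryos and removal of dead cells. Mutants were homozygous for CRISPR/Cas9 knockouts of both *slc30a1a* and *slc30a1b*, which encode zinc exporters of the cell membrane. Controls were siblings that were not homozygous for both knockouts. To obtain more double mutants, the authors intercrossed fish heterozygous for the *slc30a1a* knockout and homozygous for that of *slc30a1b*. All controls from such a cross would lack *slc30a1b* as well. Which cross gave these libraries, the alleles that the controls carried, and the number of embryos per library are not given in the sources used here. There were 2 libraries for each of 4 groups, controls and mutants at 2 dpf and controls and mutants at 2.5 dpf. Nothing says that the replicates came from separate clutches, so p-values measure the spread between these libraries, which may be technical.

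Cartilage is a tissue in which few cells sit in a large matrix of their own making. Its frame is a fibril of type II collagen with type XI collagen inside it and type IX collagen on its surface, and its filling is aggrecan, a large proteoglycan that holds water, with matrilins linking the parts. In the zebrafish head most of this matrix is laid down by neural crest cells of the pharyngeal arches, which condense, turn on *sox9a*, and then make collagen and aggrecan as they become chondrocytes. Type II collagen is also made in the notochord, the ear, and the floor of the brain, and so a single member does not mark the arches.

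Levels are FPKM, a count of sequenced fragments that the authors divided by transcript length and by the mapped reads of the library, so levels of different genes were compared on this scale. The values of a library summed to between 609836 and 697012 FPKM, the depth is unknown because no counts were used here, and no counting interval is given. *slc30a1a*, the targeted gene with measurable RNA, lay between 11.7 and 12.1 FPKM in controls and between 5.96 and 7.06 in mutants at 2 dpf, and between 8.56 and 11.2 in controls and 4.98 and 5.44 in mutants at 2.5 dpf. *slc30a1b* was listed at 0 to 0.14 FPKM in all 8 libraries, controls included, so it says nothing on the labels. *sox10* lay between 47.6 and 156 FPKM in all 8 libraries. In bulk samples of this kind, fewer cells of a type and less RNA per cell cannot be told apart.

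**Figure D1:**
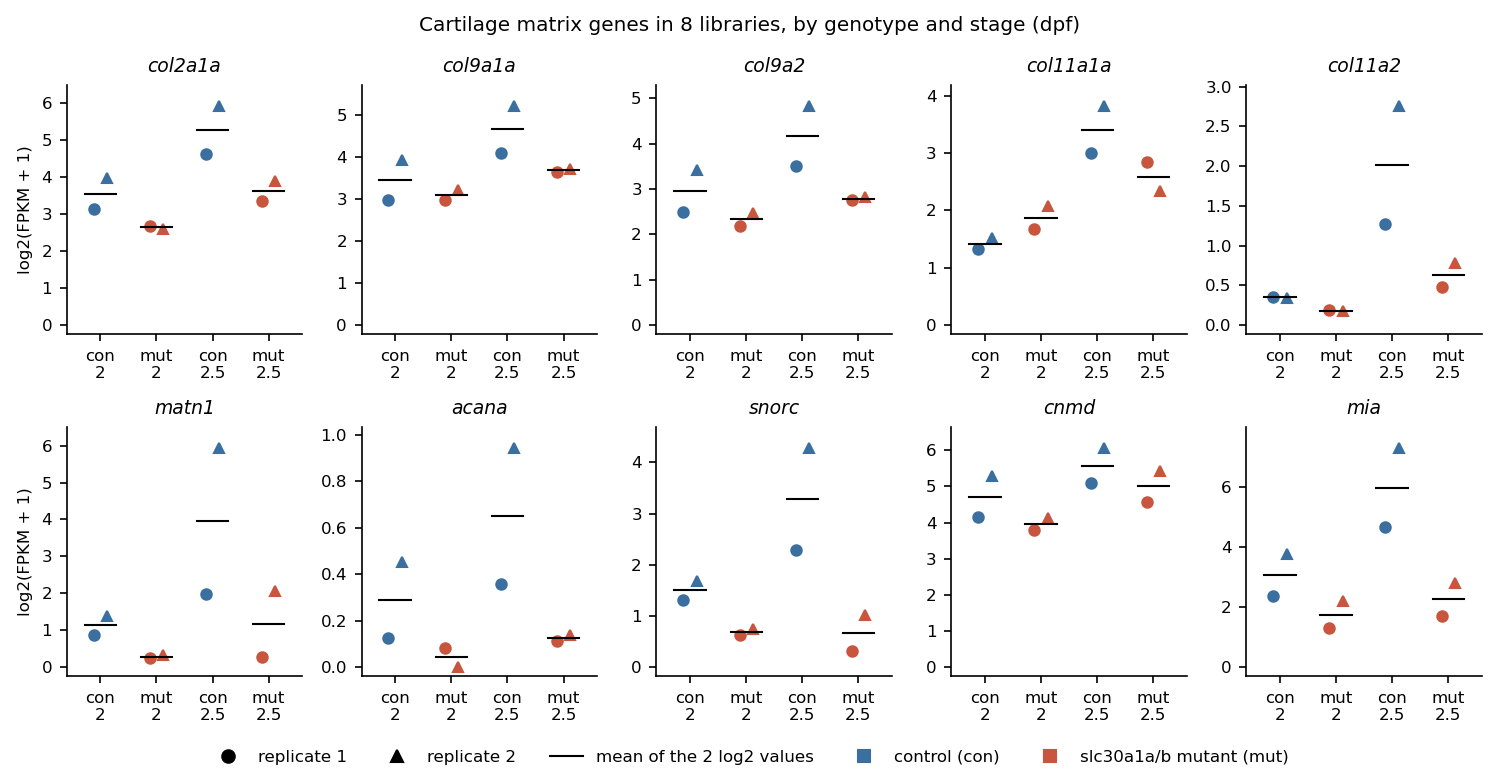
Level of each of the 10 genes on the log2(FPKM + 1) scale (vertical axes, each panel with its own range) in control (con) and mutant (mut) libraries at 2 and 2.5 dpf. Circles are replicate 1, triangles replicate 2, and lines the mean of both. The triangle of the 2.5 dpf controls stands highest of all 8 libraries in every panel.

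The most abundant member in controls at 2 dpf was *cnmd*, which encodes chondromodulin, a membrane protein of chondrocytes whose cleaved part inhibits vessel growth. It averaged 27.4 ± 15.1 FPKM (SD, n = 2). Next came *col2a1a* at 11.2 ± 4.79 and *col9a1a* at 10.6 ± 5.27 FPKM, then *mia* at 8.31 ± 5.87 and *col9a2* at 7.17 ± 3.61 FPKM, which do not differ beyond their spread. The lower members were *snorc* at 1.85 ± 0.51, *col11a1a* at 1.68 ± 0.25, *matn1* at 1.23 ± 0.55, *col11a2* at 0.275 ± 0.0071, and *acana* at 0.23 ± 0.20 FPKM (all SD, n = 2). RNA of type II and type IX collagen thus lay far above that of the aggrecan gene *acana*, which reached 0.92 FPKM in its highest library. The other aggrecan gene, *acanb*, which is not a member, reached 1.81 FPKM in that library, replicate 2 of the 2.5 dpf controls.

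At 2 dpf, 9 of the 10 members had a lower mean in mutants and 1, *col11a1a*, had a higher one. In 8 members both mutant libraries lay below both control libraries, and 6 of these 8 were among the 8 that passed the filter of a mean of 0.5 FPKM over the 4 libraries, against 12.1% of all 15453 genes tested. None of the 8 tested members passed a limma adjusted p of 0.05 (Benjamini-Hochberg over all genes tested), which 3.52% of all genes passed, and 4 of them, all lower in mutants, had an unadjusted p under 0.05, as did 3806 of all genes, 830 of them lower. The study selected lower genes by an unadjusted p under 0.05 and a log2 fold change under −1. Applied to the limma fit on log2(FPKM + 1), that cut-off picked 1 member as lower, *mia*, against 1.64% of all genes. *matn1*, *snorc*, and *col2a1a*, at 17.9%, 32.7%, and 46.8% of the control mean, also had an unadjusted limma p under 0.05. On this scale, which understates changes of low genes, their log2 fold changes were −0.85, −0.82, and −0.91, short of the cut-off. An exact permutation test of 2 against 2 libraries cannot give a p below 0.333, so none was used.

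On the log2(FPKM + 1) scale the largest difference at 2 dpf was that of *mia*, while as a share of the control mean *acana* (13.04%) and *matn1* (17.9%) stood lower in mutants than *mia* (30.4%). *mia* encodes a small secreted protein of chondrocytes that was first described in melanoma. It was listed at 4.16 and 12.5 FPKM in the controls (replicates 1 and 2) and at 1.45 and 3.61 FPKM in the mutants. The groups did not overlap, but the higher mutant library came close to the lower control library. The log2 fold change, mutant minus control on the log2(FPKM + 1) scale, was −1.31 (SE 0.49, limma adjusted p = 0.173).

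For *col2a1a*, the chain of type II collagen, the controls held 7.79 and 14.6 FPKM and the mutants 5.42 and 5.04 FPKM. Both mutant libraries were lower than either control and close to each other, and the log2 fold change was −0.91 (SE 0.29, limma adjusted p = 0.124). *matn1*, which encodes matrilin 1, an adaptor of the cartilage matrix, stood at 0.84 and 1.62 FPKM in controls and at 0.19 and 0.25 FPKM in mutants. This left mutants at 17.9% of the control mean with no overlap, and a log2 fold change of −0.85 (SE 0.20, limma adjusted p = 0.0735) that understates the ratio because the levels are low. *snorc*, a small transmembrane proteoglycan of chondrocytes, behaved alike, with 1.49 and 2.21 FPKM in controls and 0.54 and 0.67 FPKM in mutants. Its groups were separate as well (log2 fold change −0.82, SE 0.18, limma adjusted p = 0.0670).

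*cnmd* stood at 16.7 and 38.1 FPKM in controls and at 12.9 and 16.6 FPKM in mutants, so that the higher mutant library and the lower control library were nearly equal (log2 fold change −0.75, SE 0.37, limma adjusted p = 0.268). The chains of type IX collagen, which binds to the surface of the fibril, showed smaller differences. *col9a2* held 4.61 and 9.72 FPKM in controls and 3.56 and 4.56 FPKM in mutants, again with little room between the groups (log2 fold change −0.62, SE 0.32, limma adjusted p = 0.284). *col9a1a* held 6.91 and 14.4 FPKM in controls and 6.85 and 8.23 FPKM in mutants, and here the groups overlapped (log2 fold change −0.37, SE 0.32, limma adjusted p = 0.508). In all of these genes it was control replicate 2 that stood apart.

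The type XI collagens, which sit inside the fibril and limit its width, did not share a direction at 2 dpf. *col11a1a* was listed at 1.5 and 1.85 FPKM in controls and at 2.18 and 3.23 FPKM in mutants, both mutant libraries above both controls, with a log2 fold change of 0.46 (SE 0.21, limma adjusted p = 0.231). Both mutants stood above both controls in 6924 of all 15453 genes tested at this stage, so this order was common. *col11a2* lay at 0.28 and 0.27 FPKM in controls and at 0.14 and 0.13 FPKM in mutants. *acana*, an aggrecan gene, lay at 0.09 and 0.37 FPKM in controls and at 0.06 and 0 FPKM in mutants. Both were under the filter and were not tested, and at such levels the order of the groups rests on very little RNA.

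At 2.5 dpf all 10 members had a lower mean in mutants. In 8 of them the groups did not overlap, 7 of which were among the 9 that passed the filter, against 19.2% of all 17379 genes tested. No member passed a limma adjusted p of 0.05, and neither did any other gene (0% of all genes), although 2128 genes, 880 of them lower in mutants, had an unadjusted p under 0.05. Of the 9 tested members 6 had an unadjusted p under 0.05, all lower in mutants. On the log2(FPKM + 1) fit 5 met the cut-off of the study as lower, against 1.28% of all genes. The median log2 fold change of the members was −1.38, beside 0.02 for all genes tested, and at 2 dpf the corresponding medians were −0.69 and 0.18.

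*mia* again differed most. It stood at 24.0 and 153 FPKM in controls and at 2.23 and 6.01 FPKM in mutants. Mutants were thus at 4.66% of the control mean with the groups far apart, and the log2 fold change was −3.70 (SE 0.87, limma adjusted p = 0.217). *snorc* was at 3.89 and 18.3 FPKM in controls and at 0.25 and 1.02 FPKM in mutants, or 5.72% of the control mean, also without overlap (log2 fold change −2.61, SE 0.66, limma adjusted p = 0.232). *matn1* had a similar ratio of means, 5.44%, but replicate 2 made up most of the mean in both groups. Its controls held 2.93 and 59.7 FPKM and its mutants 0.22 and 3.19 FPKM, so that mutant replicate 2 lay above control replicate 1 (log2 fold change −2.77, SE 1.31, limma adjusted p = 0.483).

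Among the collagens at 2.5 dpf, *col2a1a* was at 23.5 and 58.7 FPKM in controls and at 9.28 and 13.7 FPKM in mutants, with no overlap (27.97% of the control mean, log2 fold change −1.64, SE 0.45, limma adjusted p = 0.263). *col9a2* was at 10.4 and 27.2 FPKM in controls and at 5.76 and 6.06 FPKM in mutants (31.5%, log2 fold change −1.38, SE 0.43, limma adjusted p = 0.310). *col9a1a* was at 16.3 and 35.9 FPKM in controls and at 11.6 and 12.2 FPKM in mutants (45.4%, log2 fold change −0.97, SE 0.37, limma adjusted p = 0.387). For both type IX chains the mutant libraries were nearly equal to each other and below each control.

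*col11a2*, now past the filter, was at 1.42 and 5.73 FPKM in controls and at 0.40 and 0.72 FPKM in mutants (15.7%, log2 fold change −1.38, SE 0.48, limma adjusted p = 0.354). *col11a1a* was at 7.03 and 13.04 FPKM in controls and at 6.15 and 4.06 FPKM in mutants (50.9%, log2 fold change −0.82, SE 0.34, limma adjusted p = 0.412). Both were separate between the groups, so *col11a1a* stood on the other side of its controls than at 2 dpf. *acana* held 0.28 and 0.92 FPKM in controls and 0.08 and 0.10 FPKM in mutants, which was under the filter. Its mutants were at 15% of the control mean, with a log2 fold change of −0.52 at these low levels. *cnmd* differed least as a share of the control mean, with 33.1 and 65.4 FPKM in controls and 22.9 and 42.0 FPKM in mutants, and its groups overlapped (65.9% of the control mean, log2 fold change −0.57, SE 0.42, limma adjusted p = 0.659).

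**Figure D2:**
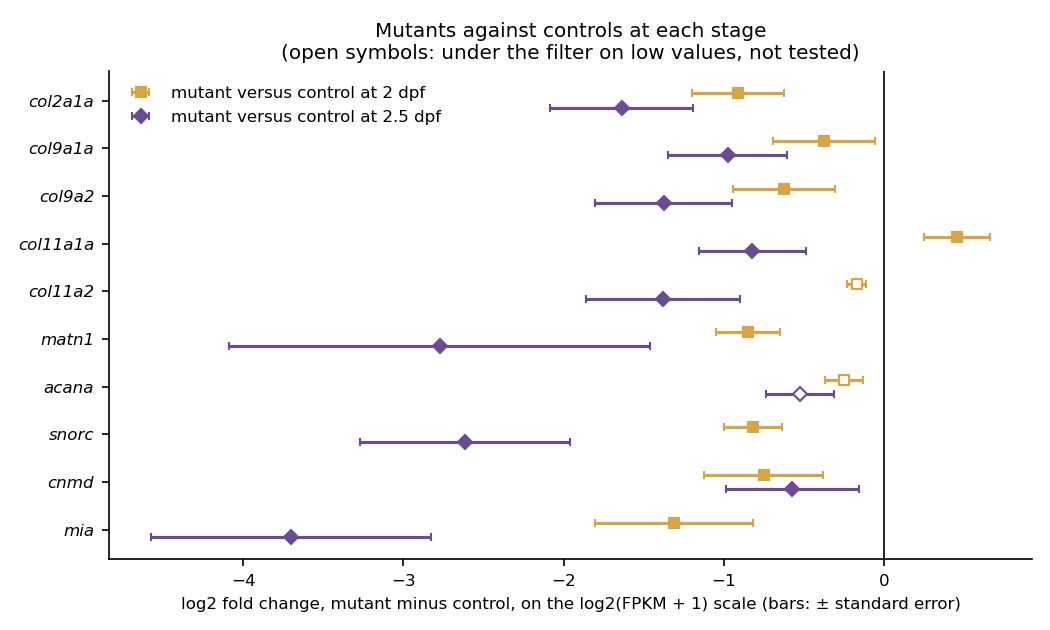
Log2 fold change of each gene, mutant minus control, on the log2(FPKM + 1) scale at 2 dpf (squares) and 2.5 dpf (diamonds), with bars of ± 1 standard error from limma. Open symbols are genes under the filter. All points lie below 0 except *col11a1a* at 2 dpf, at 0.46.

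The size of the differences at 2.5 dpf rested on the 2 control libraries unequally. Control replicate 2 was above control replicate 1 in 10 of 10 members, by a median of 1.3 on the log2 scale, against 59.4% of all genes and a median of 0.08. Mutant replicate 2 was also above mutant replicate 1 in 9 of 10 members, by a median of 0.41. For all genes in these mutants the values were 46.4% and −0.03. In the controls the ratio of replicate 2 to replicate 1 was 20.4 for *matn1*, 6.39 for *mia*, 4.71 for *snorc*, and 4.04 for *col11a2*. It was between 1.85 and 3.29 for the others. Without control replicate 1 the median log2 fold change of the members at 2.5 dpf was −2.07, with −5.02 for *mia* and −4.75 for *matn1*. Without control replicate 2 it was −0.68, with −2.39 for *mia*, −1.62 for *snorc*, −0.995 for *col2a1a*, −0.80 for *matn1*, −0.72 for *col9a2*, −0.64 for *col11a2*, −0.42 for both *col9a1a* and *col11a1a*, −0.23 for *acana*, and −0.09 for *cnmd*. All 10 remained negative, and 8 members still had both mutant libraries below control replicate 1, against 29.4% of all genes. Summed over 5 skin markers, control replicate 2 held 586 FPKM and control replicate 1 held 128 FPKM, against 191 to 274 FPKM in the other 6 libraries. The part of this difference in the members' values was not tested.

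The same library number stood higher at 2 dpf, where control replicate 2 was above replicate 1 in 9 of 10 members by a median of 0.67, against 53% of all genes. Mutant replicate 2 was above replicate 1 in 7 of 10 members by a median of 0.18, against 55.9% of all genes. Without control replicate 2 the median at 2 dpf was −0.18, and *col9a1a* turned to 0.11. *mia* was then at −0.62, *matn1* at −0.59, *snorc* at −0.63, and *col2a1a* at −0.50. Without control replicate 1 in its place the median was −1.05. *col11a1a* was above 0 with each library left out, between 0.25 and 0.66.

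**Figure D3:**
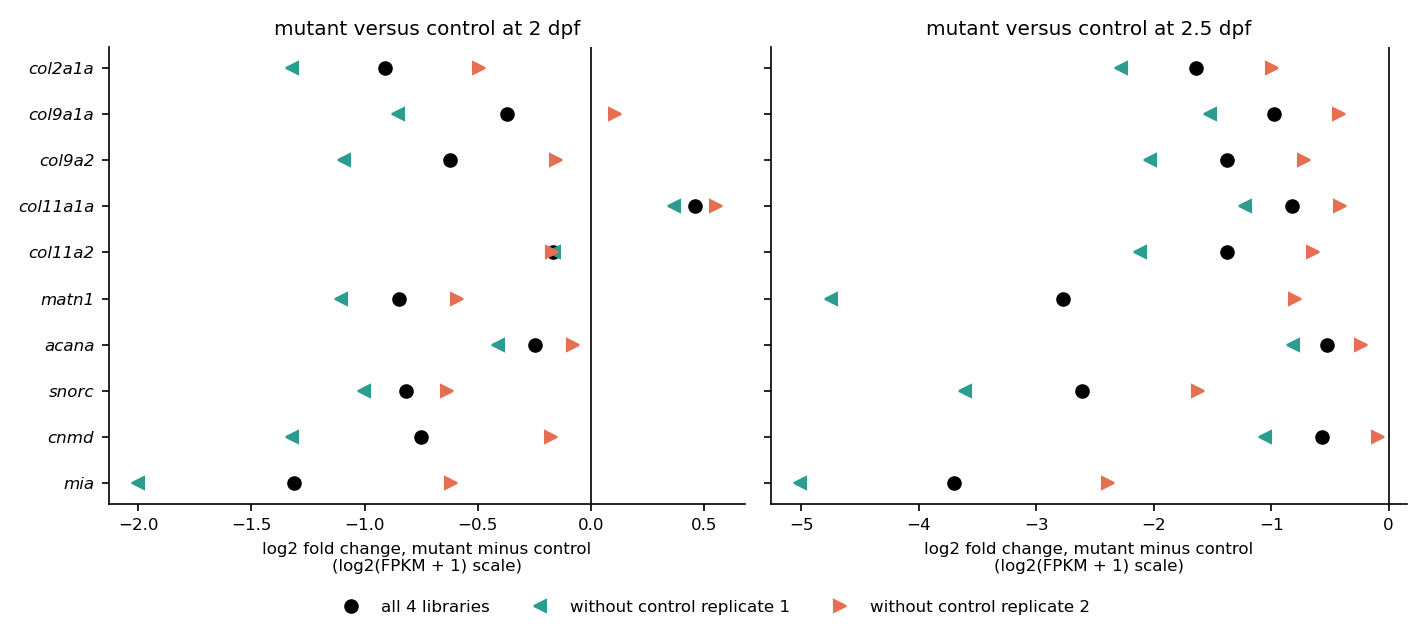
Log2 fold change of each gene, mutant minus control, on the log2(FPKM + 1) scale with all 4 libraries of the stage (circles) and with either control library left out (triangles), at 2 dpf (left) and 2.5 dpf (right, wider axis). At 2.5 dpf all points lie below 0, and those without replicate 2 are the nearest to it.

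From 2 to 2.5 dpf in controls, the means of all 10 members were higher at the later stage, and in 8 of the 9 tested members both libraries of 2.5 dpf lay above both of 2 dpf. This holds for 66.2% of all 16321 genes tested in this comparison, and the median over all genes was itself shifted by 0.44, beside 1.69 for the members. Without control replicate 2 of 2.5 dpf the median of the members was 0.82, with 1.58 for *mia*, 0.84 for *matn1*, and 0.79 for *snorc*. The stages were deposited as separate tables, so stage and table cannot be told apart, and the number of transcripts listed for *col11a1a* and *matn1* was 1 at 2 dpf and 2 at 2.5 dpf. One member passed limma, *col11a1a*, which rose from 1.5 and 1.85 to 7.03 and 13.04 FPKM (log2 change 1.99, SE 0.30, adjusted p = 0.0207), against 21.5% of all genes that passed. Without control replicate 1 or replicate 2 of 2 dpf, limma called 0 of all genes (4558 and 4297 at an unadjusted p under 0.05), so that the call of *col11a1a* was lost as well, with its log2 change at 1.9 and 2.09. On the other hand, the median log2 change of the members was 2.37 without control replicate 1 of 2.5 dpf.

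The other members were led in controls by the log2 changes of *mia* (2.90, limma adjusted p = 0.0610) and *matn1* (2.81, limma adjusted p = 0.115), followed by *snorc* (1.78, limma adjusted p = 0.0789), *col2a1a* (1.71, limma adjusted p = 0.0512), and *col11a2* (1.66, limma adjusted p = 0.0507). *col9a2* was at 1.21, *col9a1a* at 1.20, and *cnmd*, whose lower library of 2.5 dpf lay below its higher library of 2 dpf, at 0.86. *acana* was at 0.36, under the shift of all genes, and was not tested.

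Over the same interval in mutants, the change of *cnmd* was above that of the controls and those of the other 9 members were below it, and the test of this difference is given further on. The median log2 change of the members was 0.55, beside 0.25 for all genes, and 0 of 8 tested members passed limma at an adjusted p of 0.05, against 2.8% of 16875 genes, with 5 members and 4784 of all genes at an unadjusted p under 0.05. In 5 of the 8 tested members both later libraries were above both earlier ones, against 52.2% of all genes, which is close to the background. Among members whose stages did not overlap, the values were 1.03 for *cnmd* (limma adjusted p = 0.113), 0.98 for *col2a1a* (limma adjusted p = 0.0679), then 0.71 for *col11a1a*, 0.59 for *col9a1a*, and 0.46 for *col9a2*. The libraries of the 2 stages overlapped for *matn1* (0.89, SE 0.56), *mia* (0.50), and *snorc* (−0.01), of which the mutants held 0.54 and 0.67 FPKM at 2 dpf and 0.25 and 1.02 FPKM at 2.5 dpf.

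The difference between the stages in the mutant effect was tested as an interaction term, with every library in the fit. No member of the 9 tested passed an adjusted p of 0.05 by limma, nor did any of 16703 genes (0%, 902 genes at an unadjusted p under 0.05, of which 1 was a member, *col11a1a*). The estimates were −2.39 (SE 1.20) for *mia*, −1.92 (SE 1.58) for *matn1*, −1.79 (SE 0.79) for *snorc*, −1.28 (SE 0.43) for *col11a1a*, −1.21 for *col11a2*, and 0.18 for *cnmd*, with a median of −0.98 over the members and −0.16 over all genes. Without control replicate 2 of 2.5 dpf this median was −0.092. A larger difference at 2.5 dpf than at 2 dpf was therefore not shown by the test. The comparisons between genotypes and between stages share their libraries and are not separate evidence.

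Summed over the 10 members, the level was 44.3 and 95.5 FPKM in controls and 33.3 and 42.3 FPKM in mutants at 2 dpf, and 123 and 438 FPKM in controls and 58.8 and 89.0 FPKM in mutants at 2.5 dpf. The mutant sums at 2.5 dpf thus lay between the control sums of 2 dpf. Single genes did not all follow the sum. *col11a1a* in mutants at 2.5 dpf, at 4.06 and 6.15 FPKM, was above both controls of 2 dpf, and *snorc*, at 0.25 and 1.02 FPKM, was below both.

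The make-up of the sum differed as well. *cnmd* took the largest share in all 4 mutant libraries (38.7 to 47.1%) and in the 2 dpf controls (37.6 and 39.9%), and it took 26.9 and 14.9% in the 2.5 dpf controls. *mia* took 19.5 and 34.9% of the sum in the controls of 2.5 dpf and 3.79 and 6.75% in the mutants of that stage. For each unit of *col2a1a*, *mia* stood at 1.02 and 2.61 in the controls of 2.5 dpf and at 0.24 and 0.44 in the mutants, so the ratio of these genes differed and not only the sum. *snorc* stood at 0.17 and 0.31 per unit of *col2a1a* in these controls and at 0.027 and 0.074 in these mutants. The ratios of *matn1* and *col9a2* to *col2a1a* overlapped at 2.5 dpf, and those of *col9a1a* and *cnmd* were higher in both mutants. How often ratios of other genes separate was not tested. At 2 dpf the *mia* ratio overlapped between the groups (0.53 and 0.86 in controls, 0.27 and 0.72 in mutants). The ratio of *col11a1a* to *col2a1a* was higher in both mutants at 2 dpf, with 0.19 and 0.13 in controls and 0.40 and 0.64 in mutants, and it overlapped between the groups at 2.5 dpf, with 0.299 and 0.222 in controls and 0.663 and 0.296 in mutants.

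**Figure D4:**
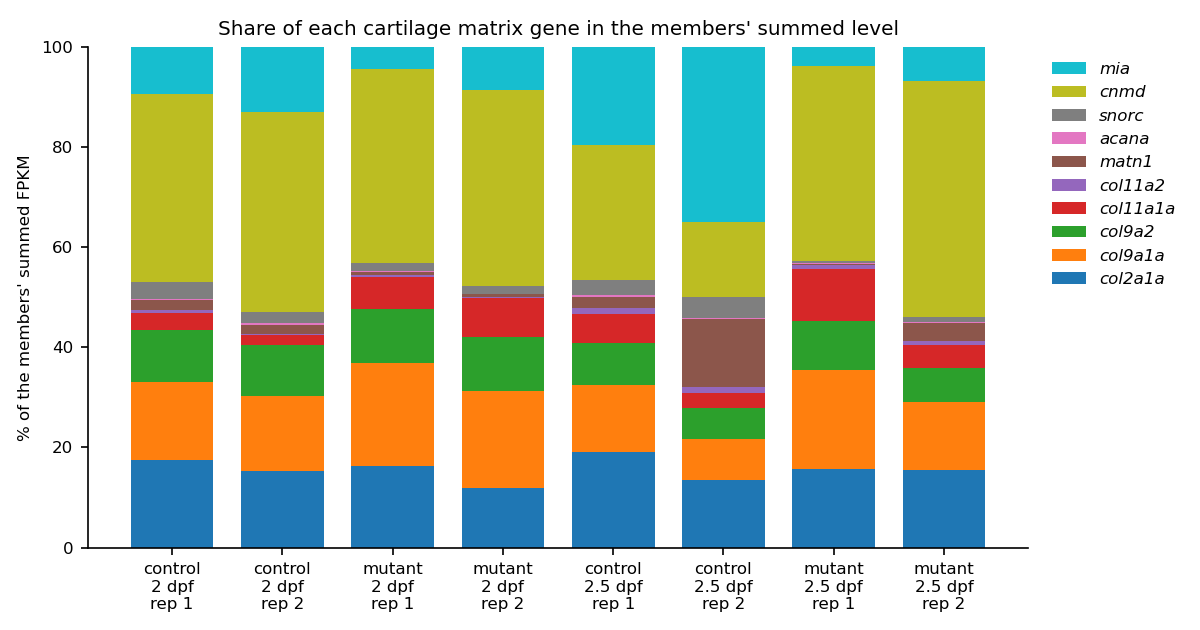
Share of each gene in the summed FPKM of the 10 members (vertical axis, percent), 1 bar per library. *cnmd* (olive) takes 38.7 to 47.1% in the 4 mutant libraries, and *mia* (cyan) takes 34.9% in replicate 2 of the 2.5 dpf controls.

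Zebrafish carry second copies of some of these collagen genes, whose values are set beside those of the members. No test between copies was run. They are given also where no rule chose them, after their values had been seen. *col2a1b*, the other type II collagen gene, held 5.35 and 11.5 FPKM in controls and 9.24 and 10.9 FPKM in mutants at 2 dpf, and 13.5 and 18.6 FPKM in controls and 16.0 and 18.6 FPKM in mutants at 2.5 dpf. Its groups overlapped at both stages, with log2 fold changes of 0.31 (SE 0.32, limma adjusted p = 0.589) and 0.11 (SE 0.22, limma adjusted p = 0.889). Within a library, *col2a1a* stood at 1.46 and 1.27 times the level of *col2a1b* in controls and at 0.59 and 0.46 times in mutants at 2 dpf. At 2.5 dpf the ratio was 1.74 and 3.16 in controls and 0.58 and 0.74 in mutants. The order of the copies was therefore opposite in controls and mutants in all 8 libraries, and a ratio within a library does not depend on scaling between libraries. Other collagen pairs did not share this. The ratios of *col9a1a* to *col9a1b* and of *col9a2* to *col9a3* overlapped between genotypes at both stages. That of *col11a1a* to *col11a1b* overlapped at 2 dpf (1.43 and 1.07 in controls, 0.86 and 1.40 in mutants). At 2.5 dpf it was 2.53 and 3.78 in controls and 1.39 and 0.81 in mutants. How often other gene pairs separate in this way was not tested.

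*col11a1b*, the second copy of *col11a1a*, was higher in mutants at both stages, with 1.05 and 1.73 FPKM in controls and 2.54 and 2.30 FPKM in mutants at 2 dpf (log2 fold change 0.53, SE 0.20, limma adjusted p = 0.173). Its levels at 2.5 dpf were 2.78 and 3.45 FPKM in controls and 4.41 and 5.03 FPKM in mutants (log2 fold change 0.48, SE 0.20, limma adjusted p = 0.421). The groups did not overlap at either stage, and neither value passed the test. Mutants lay above controls without overlap in 6924 of 15453 genes tested at 2 dpf and in 4225 of 17379 at 2.5 dpf. The third chain gene of type IX collagen, *col9a3*, resembled *col9a2*, at 13.5 and 27.2 FPKM in controls and at 4.79 and 8.60 FPKM in mutants at 2.5 dpf (log2 fold change −1.44, SE 0.40, limma adjusted p = 0.269). *col9a1b*, the copy of *col9a1a*, was at 2.67 and 4.74 FPKM in controls and at 1.62 and 2.18 FPKM in mutants at 2.5 dpf (log2 fold change −0.67, SE 0.28, limma adjusted p = 0.420). Reads of near-identical copies may have been shared between them, and how the authors' tools split such reads is not given in the sources used here.

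**Figure D5:**
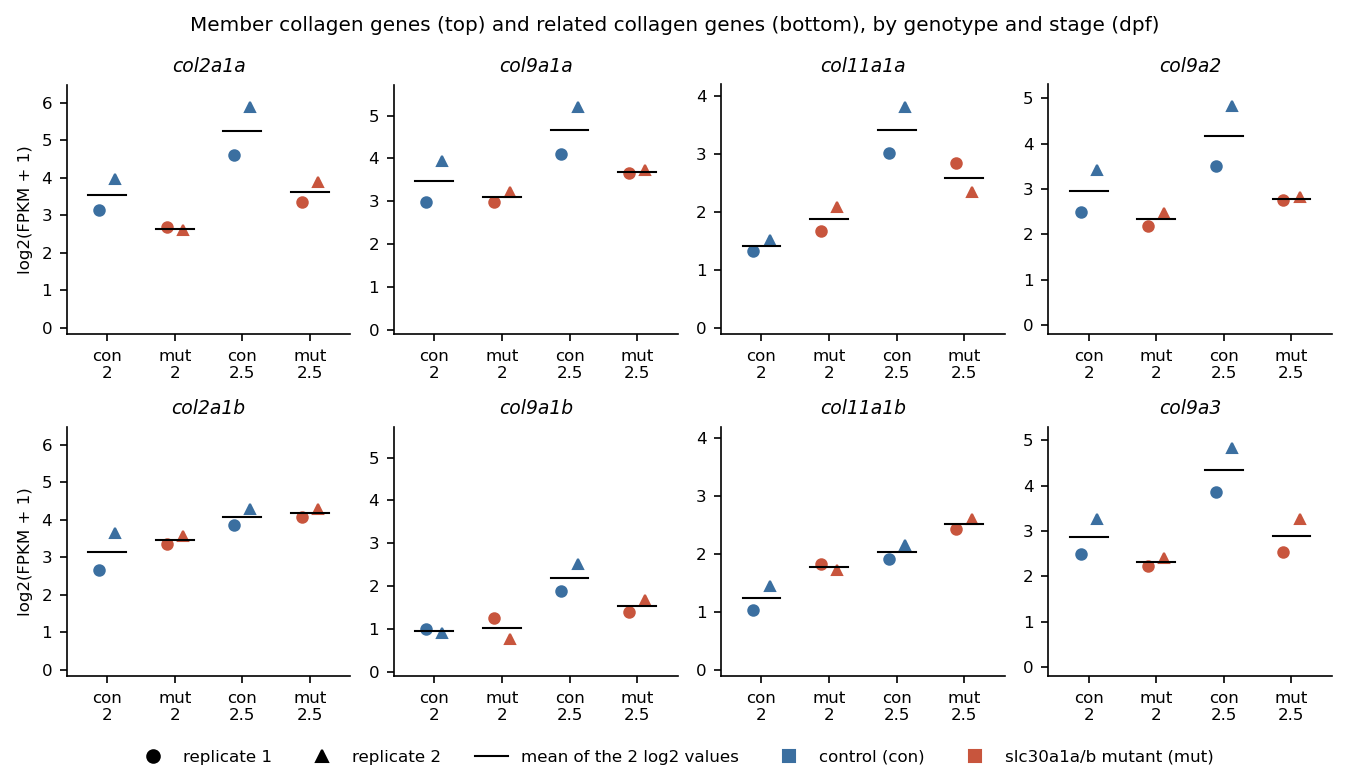
Levels of 4 member collagen genes (top) and of a related collagen gene of each (bottom) on the log2(FPKM + 1) scale, in control (con) and mutant (mut) libraries at 2 and 2.5 dpf. Circles are replicate 1, triangles replicate 2, and lines the mean of both. At 2.5 dpf, both mutant libraries lie below both controls for *col2a1a* but overlap with them for *col2a1b*, and lie above them for *col11a1b*.

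A wider list of cartilage matrix genes had 19 names, of which 16 were found. At 2 dpf 9 of these were tested and 0 were called by limma. An unadjusted p under 0.05 was found for 1, *col11a1b*, and for 3806 of all 15453 genes. The median log2 fold change was 0.02, beside 0.18 for all genes. At 2.5 dpf 12 were tested and 0 were called. An unadjusted p under 0.05 with lower levels in mutants was found for 4 of the 12 and for 880 of all 17379 genes. The median was −0.52, beside 0.02 for all genes. The 3 with the largest difference among those 4 were *col9a3*, *ucmab* (−1.11, limma adjusted p = 0.297), and *ucmaa* (−0.93, limma adjusted p = 0.233). *ucmaa* and *ucmab* encode copies of a small matrix protein of young cartilage, and both stood under 2.5 FPKM in every library. In controls from 2 to 2.5 dpf 3 of 12 tested were called, all higher, where 21.5% of all genes were called, namely *col9a3* (1.47, limma adjusted p = 0.0492), *col9a1b* (1.25, limma adjusted p = 0.0307), and *ucmaa* (0.92, limma adjusted p = 0.0369), and in mutants 0 of 8 were called, with 4 at an unadjusted p under 0.05.

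Genes that modify, assemble, and export collagen and proteoglycans numbered 19, all tested at each stage. At 2 dpf, where limma called 154 of all 15453 genes as lower, 1 fell. This was *serpinh1b*, which encodes Hsp47, the chaperone of collagen in the endoplasmic reticulum. It was at 171 and 144 FPKM in controls and at 50.3 and 62.6 FPKM in mutants (log2 fold change −1.47, SE 0.19, limma adjusted p = 0.0200). This call was lost without control replicate 1, control replicate 2, or mutant replicate 1 (limma adjusted p of 0.115 to 0.153), and without either control no gene at all was called. Its libraries overlapped at 2.5 dpf, with 68.1 and 146 FPKM in controls and 82.5 and 16.9 FPKM in mutants. No gene of the list was called at 2.5 dpf, where the only one at an unadjusted p under 0.05 was *csgalnact1a*, an enzyme that starts chondroitin sulphate chains (−0.79, limma adjusted p = 0.372). Of all 17379 genes tested at that stage, 880 were lower at such a p. The median of the list was −0.01 at 2 dpf and −0.31 at 2.5 dpf, beside 0.18 and 0.02 for all genes. In controls from 2 to 2.5 dpf 4 of the 19 rose, a share close to that of all genes called (21.5%), led by *xylt1*, which starts the sugar chains of proteoglycans (1.41, limma adjusted p = 0.0234), and by *creb3l2* (1.1, limma adjusted p = 0.0406) and *uxs1* (0.92, limma adjusted p = 0.0385), and in mutants 0 were called, with 5 at an unadjusted p under 0.05.

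Among 9 transcription factors of cartilage cells, 2 fell at 2 dpf, where limma called 154 of all 15453 genes as lower. *nkx3.2*, a factor of the jaw joint region, was at 17.5 and 35.3 FPKM in controls and at 6.81 and 6.73 FPKM in mutants (log2 fold change −1.74, SE 0.32, limma adjusted p = 0.0423). *runx2b*, a factor of bone and of maturing cartilage, was at 5.11 and 8.87 FPKM in controls and at 1.41 and 1.95 FPKM in mutants (log2 fold change −1.54, SE 0.27, limma adjusted p = 0.0389). Both calls were lost with any of the 4 libraries left out (limma adjusted p of 0.0877 to 0.191; without either control library no gene at all was called), with the log2 fold change still at −1.20 or below. At 2.5 dpf 0 of the 9 were called. An unadjusted p under 0.05 with lower levels in mutants was found for 4 of them and for 880 of all 17379 genes. The median was −0.71, beside 0.02 for all genes. The 3 of those 4 with the largest difference were *nkx3.2* (−1.23, limma adjusted p = 0.281), *sox5* (−0.91, limma adjusted p = 0.308), and *sox9a* (−0.87, limma adjusted p = 0.318). *sox9a*, whose product switches on type II collagen and aggrecan, stood at 102 and 170 FPKM in controls and at 66.0 and 77.9 FPKM in mutants, 53.0% of the control mean. Of 9 signalling genes of cartilage 4 passed the filter and were tested at 2 dpf and 6 at 2.5 dpf. In the genotype comparison 0 were called at either stage, with 0 at 2 dpf and 1 at 2.5 dpf at an unadjusted p under 0.05. That one was *nog3*, a secreted BMP inhibitor of cartilage (14.6 and 59.7 FPKM in controls, 6.05 and 6.97 FPKM in mutants, log2 fold change −2.04, limma adjusted p = 0.297). In controls between stages 1 of the 9 tested transcription factors rose, *trps1* (0.73, limma adjusted p = 0.0451), and 1 of 6 tested signalling genes, *gdf5* (0.63, limma adjusted p = 0.0457). Of all genes 21.5% were called there, so these counts are no more than the background. In mutants 0 genes of these 2 lists were called, with 4 at an unadjusted p under 0.05. With either control library of 2 dpf left out no gene at all was called in this comparison, these included.

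Across the 8 libraries, the log2 levels of the members varied together. The median Pearson r of a member with the other 9 was between 0.85 and 0.94, except for *col11a1a* at 0.72, and the lowest of all pairs was *col11a1a* with *acana* at 0.63. The 8 points come from 4 groups and share stage and genotype, so r is a description. Among 11029 genes averaging 2 FPKM or more, those most like the mean profile of the members were *foxf2b* (r = 0.992), a forkhead factor of the arch mesenchyme, *ptgdsa* (0.990), *ppp1r1c* (0.987), *col9a3* (0.983), and *sox5* (0.975). *foxf2b* was at 3.53 and 7.17 FPKM in the 2.5 dpf controls and at 2.32 and 2.48 FPKM in the mutants of that stage. Replicate 2 of the controls stood apart as it did for the members, which follows from choosing the gene by its likeness to them.

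Markers of several cell types, of which notochord and ear also make type II collagen, were summed in each library. The 5 notochord markers summed to 1.61 to 1.99 FPKM in controls and 2.45 to 3.05 FPKM in mutants at 2 dpf. At 2.5 dpf they summed to 1.13 to 3.70 FPKM in controls and 1.60 to 2.52 FPKM in mutants. Of them *cmn* was listed at 0 in 7 of 8 libraries. *shha*, at 0.90 to 2.66 FPKM, and *tbxta*, at 0.04 to 0.76 FPKM, were above 0 in all 8. Otic markers summed to 105 to 117 FPKM in controls and 64.0 to 72.8 FPKM in mutants at 2.5 dpf, lower in mutants as the members were, and to 17.1 to 21.8 FPKM in controls and 24.5 to 41.3 FPKM in mutants at 2 dpf, where the members stood the other way. *stm* and *otomp* made up most of these sums, and *oc90*, another otic marker, was higher in mutants at 2.5 dpf (0.5 and 0.71 FPKM in controls, 2.57 and 3.77 FPKM in mutants). Their part in the result was not tested. The 5 markers of pharyngeal arch crest summed to 298 to 475 FPKM in controls and 594 to 624 FPKM in mutants at 2 dpf, and to 371 to 550 and 586 to 685 FPKM at 2.5 dpf. These sums were thus higher in mutants at both stages, opposite to the members. At 2.5 dpf *twist1a*, *prrx1a*, and *prrx1b* were higher in both mutants. The groups overlapped then for *dlx2a* (65.0 and 89.3 FPKM in controls, 90.5 and 86.2 in mutants) and *hand2* (150 and 219 FPKM in controls, 248 and 153 in mutants). Neural crest markers overlapped between genotypes at 2 dpf (100 to 138 FPKM in controls, 105 to 135 in mutants) and at 2.5 dpf (252.18 and 267.44 FPKM in controls, 252.44 and 186 FPKM in mutants). Retina markers, which neural crest cells do not express, summed to 45.4 to 96.6 FPKM in controls and to 8.04 to 14.2 FPKM in mutants over both stages. Among them *rx1* overlapped between genotypes at both stages and *rx2* at 2 dpf. Lens markers (108 to 146 FPKM in controls, 9.56 to 36.7 FPKM in mutants) and red blood cell markers (15657 to 24380 FPKM in controls, 6057 to 7627 FPKM in mutants) were also lower in mutants at 2 dpf, and both overlapped between genotypes at 2.5 dpf. The sum of skeletal muscle markers was lower in mutants at 2 dpf (118 to 172 FPKM in controls, 70.8 to 99.8 in mutants), though *tnnt3b* and *myhz2* overlapped. At 2.5 dpf the muscle sum was higher in mutants (27.6 to 30.9 FPKM in controls, 35.1 to 79.1 in mutants). There *acta1b* overlapped, at 12.5 and 11.4 FPKM in controls and 10.8 and 22.8 FPKM in mutants. The part of other sorted cells in the members' values was not tested.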

How the data were processed

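RNA of sorted sox10:kikGR+ cells was measured by SMART-seq in 8 libraries, in which cDNA primed on poly(A) tails was amplified by PCR, fragmented, and sequenced with paired ends. The authors aligned reads to GRCz11 with HISAT, assembled transcripts and computed FPKM with StringTie, and name edgeR beside it for the estimation of levels. Tool versions are not given in the sources used here. The deposited tables, 1 for each stage, give rounded FPKM, and the scaling of the authors was kept. All columns were used. PCR copies are not independent molecules, and the depth behind a value is unknown.

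Comparisons were fitted with limma 3.58.1 (R 4.3.3), using lmFit and a trended eBayes, on log2(FPKM + 1), a scale with a pseudocount of 1 that understates changes of low genes. Genes averaging 0.5 FPKM or more in the libraries of a fit were tested, two-sided, with Benjamini-Hochberg adjustment over all of them and a threshold of 0.05. Genes below that level have estimates from an unfiltered fit. Genotypes were compared within each stage over 4 libraries, stages within each genotype over 4 libraries and the identifiers in both tables, and the interaction over all 8. The study's selection by unadjusted p and a log2 fold change beyond 1 was counted from the same fits. The code was tested on simulated data.

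The members and the gene lists were chosen with earlier results of these data known. All 10 members are named. Of each other list at most 3 genes per comparison are named, the called ones with the largest log2 fold change or, with none called, those at an unadjusted p under 0.05. The 5 genes most like the members are named too, and so are the related collagen genes *col2a1b*, *col9a1b*, *col9a3*, and *col11a1b* in comparisons where that rule did not pick them, chosen after their values were seen. The same holds for *acanb*. Some names of the lists, namely *comp*, *cytl1*, *col27a1a*, and *ccn2a*, matched no symbol of the tables, whose symbols were used throughout.

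Each fit was repeated without each library, with the replicate number as a block, with a pseudocount of 0.1, unfiltered, with the minimum raised to 2 FPKM, after quantile normalization or median-ratio rescaling, without the variance trend, and with the spread estimated from all 8 libraries. Where that leaves a group with 1 library, it is assumed to vary like the other group.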

Additional observations from a re-analysis of the deposited data

Results flagged for a closer look

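The estimates of the mutant effect on *col11a1a* had opposite signs at the 2 stages, a difference that did not pass the test. Both mutant libraries were above both controls at 2 dpf (log2 fold change 0.46) and below both at 2.5 dpf (log2 fold change −0.82). The order at 2 dpf was shared by 6924 of 15453 genes tested, with a median of 0.18 over all genes. That at 2.5 dpf was shared by 3331 of 17379. After median-ratio rescaling the value of *col11a1a* at 2 dpf was 0.28. The interaction of genotype and stage was −1.28 on the log2 scale (SE 0.43), which limma did not call (adjusted p = 0.859). The number of transcripts listed for *col11a1a* was 1 at 2 dpf and 2 at 2.5 dpf, and the part of this in the result was not tested.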

How the results depend on the processing

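With each alternative the median log2 fold change of the 10 members kept its sign in all 5 comparisons, and at 2.5 dpf all 10 members stayed lower in mutants. The filters, the single fit, the block, and the fit without the variance trend cannot change these estimates. The signs could change only with the pseudocount, rescaling, quantile normalization, or a library left out. With a library left out, that median ranged from −1.05 to −0.18 at 2 dpf and, for the interaction, from −1.54 to −0.092. Counts of called genes depended far more on the processing, and their causes were not tested. At 2 dpf limma called 544 genes, against 47 without a filter, 236 after quantile normalization, 293 in a single fit of all 8 libraries, 830 with the replicate block, and 0 to 227 with a library left out. At 2.5 dpf it called 0 genes, against 28 with a filter at a mean of 2 FPKM, 249 in the single fit, and 738 with the block. From 2 to 2.5 dpf in controls it called 3517 genes and 1 member, against 0 and 0 without a filter, 2242 genes with a filter at 2 FPKM, 993 genes after median-ratio rescaling, 526 genes and 0 members after quantile normalization, 5671 genes and 5 members in the single fit, 1113 genes and 5 members with the block, 2 members with a pseudocount of 0.1, and 0 to 3424 genes and 0 to 8 members with a library left out. In mutants it called 473 genes, against 8 without a filter, 58 after rescaling, 18 after quantile normalization, 1622 in the single fit, 4 with the block, and 0 to 5 with a library left out. For the interaction it called 0 genes, against 1 with a pseudocount of 0.1 and 0 to 1 with a library left out.

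With the replicate number as a block, limma called 3 members at 2 dpf (*matn1*, *snorc*, and *mia*, adjusted p = 0.0496, 0.0494, and 0.0307) and 6 at 2.5 dpf (*col2a1a*, *col9a2*, *col11a2*, *matn1*, *snorc*, and *mia*, adjusted p from 0.00128 to 0.0403). Deviations of same-numbered libraries correlated at 0.144 at 2 dpf and 0.371 at 2.5 dpf, but with 2 pairs per stage and nothing in the labels on shared clutches the numbers were not taken as pairs. Rescaling moved the median of all genes from 0.18 to −0.02 at 2 dpf, from 0.44 to −0.02 between stages in controls, from 0.25 to −0.03 in mutants, and from −0.16 to 0.02 for the interaction, and that of the members to −0.89, 1.20, 0.31, and −0.77. Low genes such as *acana* and *col11a2* at 2 dpf depend on the pseudocount, and the unknown depth limits what their values show.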
